A study of Papio papio with 23 samples.

Results

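The TNF superfamily is a set of signalling ligands, most of them made as membrane proteins and partly released from the cell, and of the cell-surface receptors that bind them. Members were taken as every gene name on the array that was TNF, or that began with TNFSF (ligands) or TNFRSF (receptors) followed by a digit, with a probe well above background on at least 4 of the 23 arrays. The array carries 33 such gene names. Of these, 26 were kept, 8 ligands and 18 receptors, out of 21130 genes tested in all. The 7 left out were TNFRSF9, TNFRSF11B, TNFSF11, TNFSF15 and TNFSF18, with no array above background, and TNFRSF17 and TNFSF9, each above background on 3 arrays, just under the limit. Of those kept, TNFRSF11A and TNFRSF13B were above background on 9 arrays, TNFSF4 on 16 and TNFRSF18 on 17. Each of the other 22 members was above background on all 23.

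RNA from whole blood of adult male Papio papio baboons (mean age 8.1 ± 3.3 years) was hybridised to human Agilent single-colour arrays, 1 array per blood sample. All irradiated animals received gamma rays from a cobalt source to the whole or part of the body, with an equivalent whole-body dose of 2.5 or 5 Gy. Group H2-3 holds 5 baboons and group H1-2 holds 4, each sampled on day 1 and on day 2 after exposure. The groups carry the grade of the haematological form of acute radiation syndrome (HARS), in which blood cell counts drop, that an animal later developed, H2-3 being the more severe. Group H0 holds 5 unexposed baboons sampled before irradiation. Dose per animal, and whether the H0 animals were among those irradiated later, are not given in the sources used here. The study set out to find early changes in blood that precede the syndrome.

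A level is the log2 of a probe's signal relative to the 75th percentile of its array, so that 0 is that percentile and 1 unit is a doubling. Between 41.4 and 51.3% of an array's probes rose well above background, and the signal at its 75th percentile lay between 80.95 and 156.4. No spot of a member was saturated. Because each probe has its own brightness, levels were compared between arrays and never between genes. Where the arrays of a member are said not to overlap between groups, the share of all genes that do the same was not counted. The arrays lay on 7 slides scanned on 3 days: H0 baboons 1 and 2 were scanned on a day of their own, H0 baboons 3 to 5 with all day 1 arrays, and all day 2 arrays on the third day.

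As background, each receptor of the family belongs to 1 of 3 kinds. Death receptors carry an intracellular death domain and can start caspase-driven cell death, decoy receptors bind a ligand without passing on a death signal, and the remaining receptors bind TRAF adaptor proteins and act mainly through NF-kB. In blood the family sets how long lymphocytes live, how T cells are co-stimulated and how myeloid cells respond in inflammation.

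The array read each member through a human 60-base probe. The 4 probes shown lie in protein-coding sequence and read BAFF and APRIL, the B cell survival ligands that rose, their shared receptor TACI, which fell, and LIGHT, a ligand that rose in both categories. Positions are those of the human build hg19, and the sequence is given along the gene's strand. Capitals in the TNFSF13B probe mark the codons of the furin cleavage site at which BAFF is released from the cell. This 12-base run AGAAATAAGCGT, searched on both strands, was present in 1 of 50571 probe sequences of the array (0.00198%). The TNFSF13 probe crosses a splice junction, so its 60 bases span 242 bases of the genome.
TNFSF13B (BAFF), chr13:108922693-108922752, plus strand: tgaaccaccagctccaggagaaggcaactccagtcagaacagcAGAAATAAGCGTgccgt
TNFSF13 (APRIL), chr17:7463468-7463709, plus strand: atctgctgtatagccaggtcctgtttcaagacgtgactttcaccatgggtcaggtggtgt
TNFSF14 (LIGHT), chr19:6664939-6664998, minus strand: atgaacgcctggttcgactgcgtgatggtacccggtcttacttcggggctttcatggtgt
TNFRSF13B (TACI), chr17:16852071-16852130, minus strand: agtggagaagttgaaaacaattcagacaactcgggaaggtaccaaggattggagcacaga
Baboon RNA may differ from these human bases, and how far that lowers a signal was not tested. The longest run that any member's probe shared with the probe of another member was 7 to 10 bases.

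On day 1, 18 of the 26 members differed between H2-3 and H0 blood at an adjusted p under 0.05 (limma, Benjamini-Hochberg over all 21130 genes), 13 higher and 5 lower. Over all genes tested 28.4% passed the same test, 15% higher and 13.5% lower. The median log2 change was 0.83 over the members and 0.14 over all genes. Ligands moved in 1 direction: 5 of 8 rose and none fell. Of the 5 death receptors 3 rose and 1 fell, 2 of the 3 decoy receptors rose, and of the 10 TRAF-binding receptors 3 rose and 4 fell. With slide as a block, which leaves 1 slide with arrays of both groups, 3 members passed (1 higher, 2 lower), and with scan day as a block 11 did. With the 3 H0 arrays scanned on the same day as the day 1 arrays, 10 members rose and 4 fell, and 25 of 26 kept the sign of their change. That fit called 5185 of the 21130 genes. For the block fits the share over all genes was not counted. Scaled instead to the 75th percentile of the probes detected on all arrays, 8 members rose and 5 fell. The median of all genes then moved by -0.19 (2051 genes higher and 3836 lower, against 3161 and 2846).

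In H1-2 blood on day 1, 5 of the 26 members passed the test against H0, with TNFSF14, TNFRSF21, TNFRSF10C and TNFRSF11A higher and TNFRSF25 lower. The share over all genes was 8.59%, with 4.18% higher and 4.42% lower. The median log2 change was 0.68 over the members and 0.09 over all genes. This count was 0 with slide or scan day as a block, 0 with the 3 H0 arrays of the same scan day and 0 without H1-2 baboon 1 or baboon 2, 1 without H0 baboon 1 or 5, and 2 without H0 baboon 4. Without H0 baboon 2, H1-2 baboon 4 or H2-3 baboon 4, whose arrays also set the error estimate, it was 3. Over all genes, 352 passed with the 3 H0 arrays of the same scan day. For the other alternatives named here that number was not counted.

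On day 2, 13 of the 26 members passed in H2-3 blood against H0, 11 higher and 2 lower, and the share over all genes was 14.8%, with 10.3% higher and 4.48% lower. Their median log2 change was 0.88, against -0.03 over all genes. By role, 5 of 8 ligands, 3 of 5 death receptors and 1 of 3 decoy receptors rose with none falling, and among the 10 TRAF-binding receptors 2 rose and 2 fell. The count was 8 without H0 baboon 1, 8 without H2-3 baboon 4 and 5 without the 2 H0 arrays scanned on a day of their own. No slide or scan day held both day 2 and H0 arrays, so scan day and exposure cannot be told apart in any comparison of day 2 with H0. In H1-2 blood on day 2, none of the 26 members and 0% of all genes passed in limma, with 6 members and 2228 genes at an unadjusted p under 0.05. The median log2 change of the members was 0.49 there, against -0.01 over all genes. All of these comparisons share the 5 H0 arrays. Over the 5 groups together, 16 of 26 members passed limma's moderated F test, against 26.4% of all genes.

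**Figure D1:**
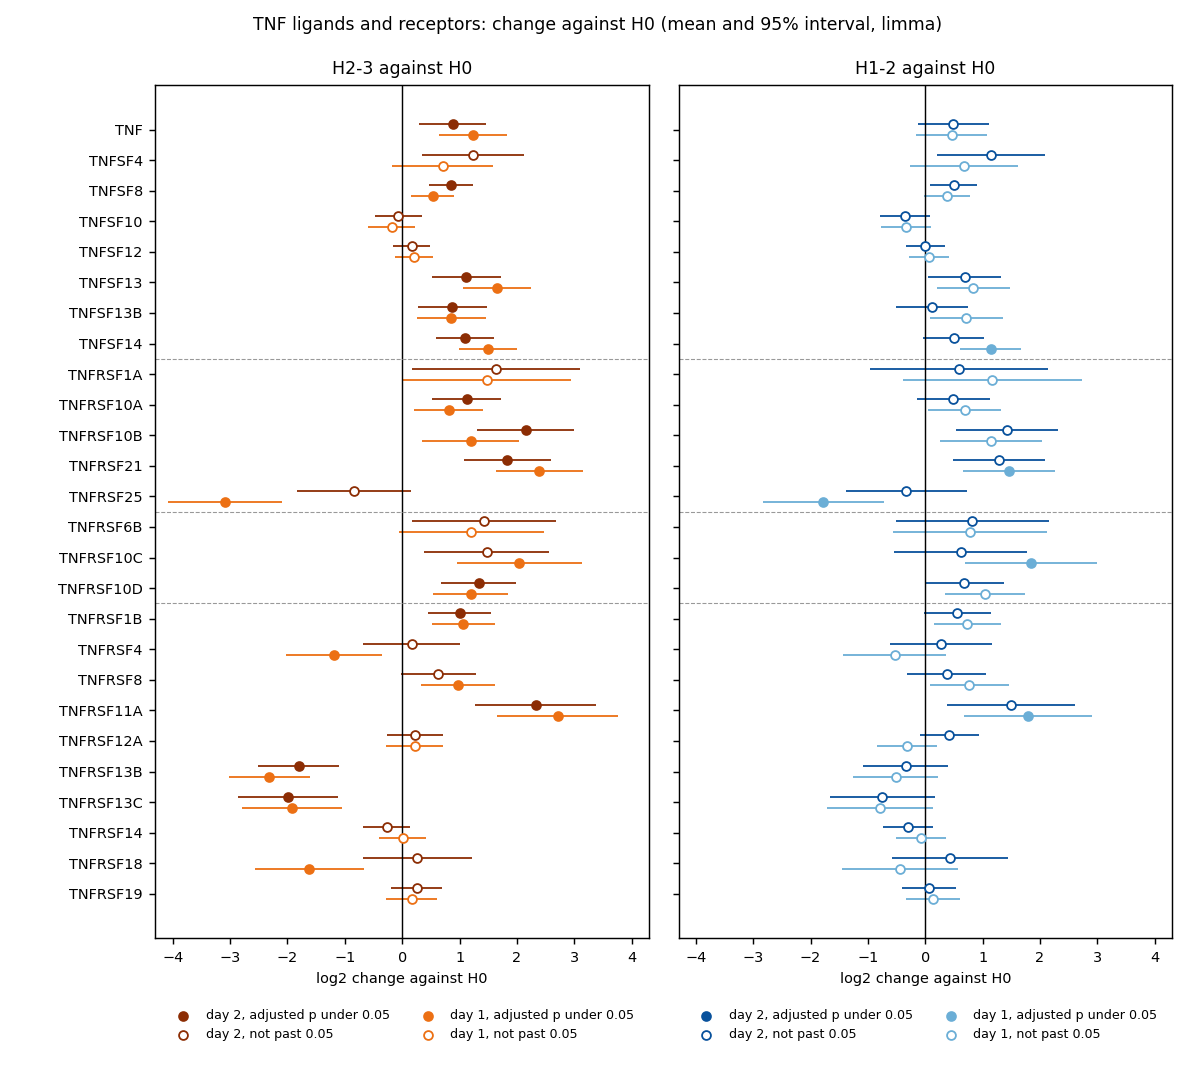
Log2 change against H0 for all 26 members, each read by its brightest probe (points, with 95% intervals from limma), H2-3 on the left and H1-2 on the right, day 2 above day 1 in each row. Filled points passed an adjusted p of 0.05, and dashed lines separate ligands, death receptors, decoy receptors and TRAF-binding receptors. In H2-3, the ligands other than TNFSF10, the decoy receptors and the death receptors other than TNFRSF25 lie right of 0 on both days, while TNFRSF25, TNFRSF4, TNFRSF13B, TNFRSF13C and TNFRSF18 lie left of it on day 1.

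Among the ligands, TNF itself, the inflammatory cytokine made mainly by monocytes and macrophages, had levels of 2.70, 2.98, 2.15, 2.85 and 2.60 in H2-3 on day 2 and 3.52, 3.09, 3.30, 2.60 and 2.53 on day 1. H1-2 levels were 3.11, 2.38, 1.93 and 1.63 on day 2 and 2.44, 2.50, 1.64 and 2.35 on day 1, against 1.06, 1.70, 2.30, 1.96 and 1.85 in H0. Every H2-3 array of day 1 lay above every H0 array, while on day 2 H2-3 baboon 3 fell within the H0 range and the H1-2 arrays overlapped it on both days. TNF rose in H2-3 by 0.88 ± 0.28 (log2 ± SE from limma, 5 arrays in each group here and below, and 4 in H1-2; adjusted p 0.0403) on day 2 and by 1.23 ± 0.28 (adjusted p 0.00264) on day 1, the day 1 change being 2.35-fold. The H1-2 change on day 1 was 0.46 ± 0.30 and did not pass (adjusted p 0.347).

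TNFSF14 (LIGHT), a ligand of the receptors HVEM and lymphotoxin beta receptor, rose in both categories on day 1. Its levels were 4.58, 4.70, 4.50, 4.84 and 4.67 in H2-3 on day 2 and 5.31, 5.17, 4.97, 4.77 and 5.10 on day 1. In H1-2 they were 4.42, 4.51, 3.69 and 3.62 on day 2 and 4.97, 5.06, 4.47 and 4.31 on day 1, against 2.99, 3.47, 4.50, 3.49 and 3.37 in H0. All 5 H2-3 arrays of day 1 and 4 of 5 of day 2 exceeded every H0 array, and the remaining day 2 array, of baboon 3, was level with the highest H0 array at 4.50. TNFSF14 was 2.13-fold higher in H2-3 than in H0 on day 2 (adjusted p 0.00936, limma), 2.83-fold higher on day 1 (adjusted p 0.00021) and 2.20-fold higher in H1-2 on day 1 (adjusted p 0.0161). The day 1 rise in H2-3 kept its call under all 37 alternatives.

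TNFSF13 (APRIL) and TNFSF13B (BAFF) are the ligands that keep B cells and plasma cells alive. TNFSF13 levels were 3.44, 2.93, 2.84, 3.21 and 3.29 in H2-3 on day 2 and 3.69, 3.26, 3.49, 3.69 and 4.24 on day 1. H1-2 arrays read 3.20, 3.29, 2.15 and 2.19 on day 2 and 3.04, 3.49, 2.48 and 2.44 on day 1, against 1.27, 2.31, 2.45, 2.48 and 1.59 in H0. No H2-3 array overlapped H0 on either day, and TNFSF13 was 2.17-fold higher in H2-3 than in H0 on day 2 (adjusted p 0.0173, limma) and 3.15-fold higher on day 1 (adjusted p 0.000368). Its H1-2 change on day 1, 0.84 ± 0.31, did not pass (adjusted p 0.0834).

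For TNFSF13B the H2-3 levels were 6.18, 5.51, 5.34, 5.95 and 5.67 on day 2 and 5.77, 5.66, 5.61, 5.87 and 5.66 on day 1. H1-2 gave 5.29, 5.34, 4.84 and 4.41 on day 2 and 5.91, 5.50, 5.14 and 5.72 on day 1, against 3.60, 5.08, 5.78, 5.02 and 4.81 in H0. The H2-3 arrays were tightly grouped, but H0 baboon 3 reached into their range on both days and H0 baboon 1 lay far below the other H0 arrays. The rise in H2-3 was 0.87 ± 0.29 on day 2 (adjusted p 0.0452, limma) and 0.86 ± 0.29 on day 1 (adjusted p 0.0296), and it kept its call under 12 of 35 alternatives on day 2 and 26 of 37 on day 1.

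TNFSF8 (CD30 ligand) also rose in H2-3. Its H2-3 levels were 0.66, 0.21, 0.35, 0.52 and 0.76 on day 2 and 0.18, -0.05, -0.10, 0.49 and 0.39 on day 1, and H1-2 levels were 0.32, 0.37, -0.12 and -0.01 on day 2 and -0.11, 0.03, 0.20 and 0.02 on day 1, against -0.75, -0.25, -0.05, -0.02 and -0.68 in H0. The H2-3 arrays of day 2 did not overlap H0, and those of day 1 did. TNFSF8 rose by 0.85 ± 0.18 in H2-3 on day 2 (adjusted p 0.00873, limma) and by 0.53 ± 0.18 on day 1 (adjusted p 0.0331).

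The remaining ligands did not pass in any comparison. TNFSF4 (OX40 ligand), not well above background on 7 of 23 arrays, had a log2 change of 1.24 ± 0.43 in H2-3 on day 2 (adjusted p 0.0535) and 0.70 ± 0.43 on day 1 (adjusted p 0.236, limma). TNFSF10 (TRAIL), ligand of the death receptors TNFRSF10A and TNFRSF10B, had changes of -0.07 ± 0.20 and -0.18 ± 0.20 in H2-3 on day 2 and day 1, and its levels spanned 2.56 to 4.01 over the 23 arrays. A second TNFSF10 probe, also above background on all 23 arrays, had the other sign, with 0.52 ± 0.30 and 0.27 ± 0.30, and did not pass. TNFSF12 (TWEAK) had changes of 0.16 ± 0.16 and 0.21 ± 0.16 on the same days, with levels from 4.17 to 4.97. A second TNFSF12 probe gave -0.44 ± 0.27 and -0.001 ± 0.27 and did not pass.

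**Figure D2:**
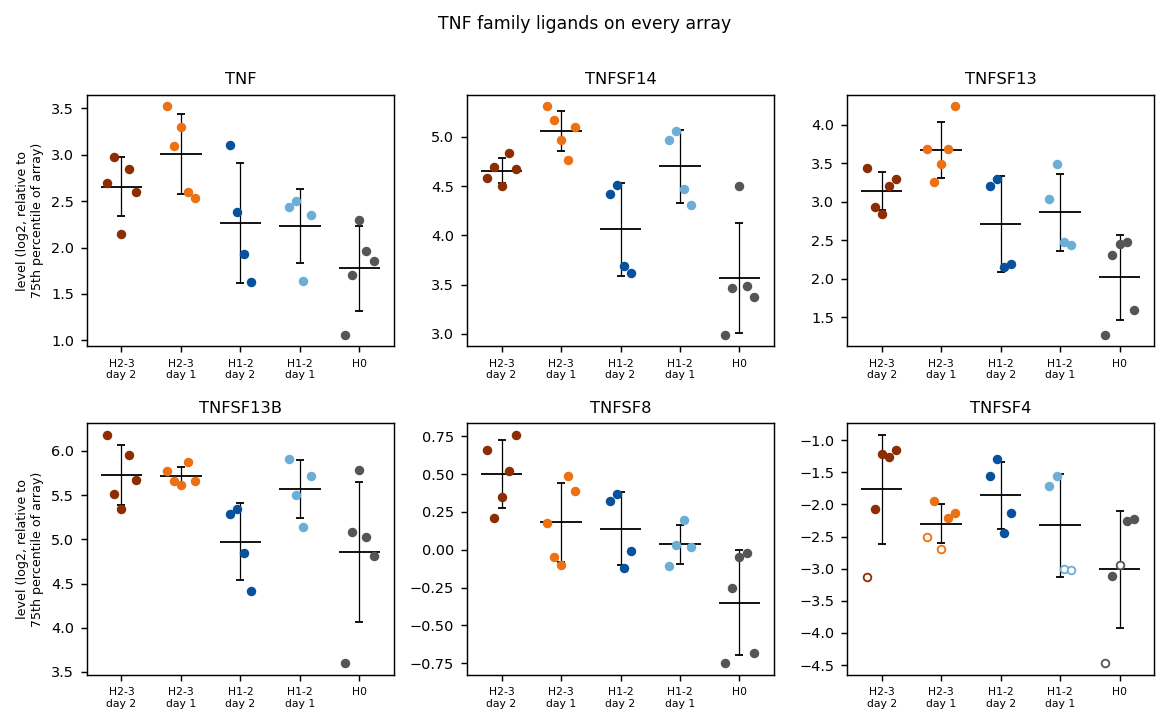
Levels of 6 ligands on every array (points, log2 relative to the array's 75th percentile), with the group mean and SD (bars, n = 5, 5, 4, 4 and 5 from left to right) and open points where the probe was not well above background. For TNF, TNFSF14 and TNFSF13 all 5 H2-3 arrays of day 1 lie above all 5 H0 arrays, and for TNFSF8 and TNFSF13 all 5 of day 2 do.

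While TRAIL did not pass in any comparison, both of its death receptors rose in H2-3 blood. These are TNFRSF10A (DR4) and TNFRSF10B (DR5), of which TNFRSF10B is a known p53 target in human cells. TNFRSF10B levels were -0.41, 0.47, 1.31, 0.20 and 0.92 in H2-3 on day 2 and -0.41, -0.01, -0.86, -0.72 and -0.29 on day 1. The H1-2 values were 0.04, 1.19, -1.49 and -0.67 on day 2 and -0.05, 0.10, -0.46 and -1.64 on day 1, against -2.20, -1.58, -1.48, -1.64 and -1.35 in H0. H2-3 and H0 did not overlap on either day, whereas H1-2 baboon 3 on day 2 and baboon 4 on day 1 lay within the H0 range. TNFRSF10B was 4.43-fold higher in H2-3 than in H0 on day 2 (adjusted p 0.0069, limma) and 2.29-fold higher on day 1 (adjusted p 0.0313). In H1-2 its change was 1.42 ± 0.43 on day 2 (adjusted p 0.343) and 1.14 ± 0.43 on day 1 (adjusted p 0.093).

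For TNFRSF10A the H2-3 levels were 2.04, 2.59, 2.01, 3.31 and 3.33 on day 2 and 2.22, 2.50, 2.16, 2.25 and 2.60 on day 1. The H1-2 levels were 2.40, 2.48, 1.20 and 1.99 on day 2 and 2.41, 2.52, 2.16 and 1.81 on day 1, against 0.83, 1.41, 1.83, 1.87 and 1.74 in H0. All 10 H2-3 arrays lay above all H0 arrays, and the 2 highest belonged to baboons 4 and 5 on day 2. TNFRSF10A rose by 1.12 ± 0.29 in H2-3 on day 2 (adjusted p 0.0169, limma) and by 0.81 ± 0.29 on day 1 (adjusted p 0.0398), where it kept its call under 21 of 37 alternatives.

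The TRAIL decoys moved the same way. TNFRSF10C (DcR1), which is anchored in the membrane by a lipid and known from neutrophils, had levels of 4.44, 4.06, 4.56, 4.61 and 4.46 in H2-3 on day 2 and 4.95, 5.14, 4.96, 4.65 and 5.26 on day 1. H1-2 baboons had 5.12, 4.38, 2.33 and 2.46 on day 2 and 5.55, 4.67, 4.40 and 4.56 on day 1, against 1.65, 3.16, 4.93, 1.65 and 3.37 in H0. The H0 arrays spread from 1.65 to 4.93, and H0 baboon 3 alone among them reached the H2-3 levels. TNFRSF10C was 4.11-fold higher in H2-3 on day 1 (adjusted p 0.00617, limma) and 3.58-fold higher in H1-2 on day 1 (adjusted p 0.0438), the H1-2 call being kept under 15 of 37 alternatives. Its change in H2-3 on day 2 was 1.47 ± 0.53 and did not pass (adjusted p 0.0599).

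TNFRSF10D (DcR2), a decoy with a cut-short death domain, had levels of 0.26, 1.32, 0.14, 0.76 and 0.84 in H2-3 on day 2 and 0.93, 1.24, 0.19, 0.51 and -0.26 on day 1. In H1-2 they were -0.06, 0.57, -0.47 and 0.01 on day 2 and 0.77, 0.64, -0.12 and 0.20 on day 1, against -1.29, 0.15, -1.07, -0.89 and -0.25 in H0. H0 baboon 2 reached into the H2-3 range on both days and H0 baboon 5 into that of day 1, while the other H0 arrays lay below. TNFRSF10D was 2.52-fold higher in H2-3 on day 2 (adjusted p 0.0122, limma) and 2.29-fold higher on day 1 (adjusted p 0.00717). The third decoy, TNFRSF6B (DcR3), which binds LIGHT and FAS ligand, did not pass in any comparison, and its changes in H2-3 were 1.42 ± 0.61 on day 2 and 1.21 ± 0.61 on day 1 (adjusted p 0.103 and 0.147).

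TNFRSF21 (DR6), a death receptor that also restrains T and B cell responses in mice, rose in both categories. Its levels were 3.08, 3.22, 3.02, 3.50 and 3.65 in H2-3 on day 2 and 3.90, 3.34, 3.57, 3.93 and 4.54 on day 1. H1-2 arrays read 3.74, 3.21, 1.90 and 2.17 on day 2 and 3.14, 3.96, 2.08 and 2.55 on day 1, against 0.60, 1.84, 1.97, 1.74 and 1.19 in H0. Only H1-2 baboon 3 on day 2 lay within the H0 range. TNFRSF21 was 3.55-fold higher in H2-3 on day 2 (adjusted p 0.0081, limma), 5.24-fold higher on day 1 (adjusted p 0.000143) and 2.76-fold higher in H1-2 on day 1 (adjusted p 0.0266). In H1-2 on day 2 the change of 1.29 ± 0.39 did not pass (adjusted p 0.337).

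TNFRSF25 (DR3), a death receptor carried mainly by T cells that binds TL1A, went the other way. Its levels were 2.99, 3.88, 3.34, 2.78 and 3.35 in H2-3 on day 2 and -0.81, 2.79, 1.77, 0.89 and 0.43 on day 1. The H1-2 values were 3.25, 3.31, 3.78 and 4.74 on day 2 and 2.11, 1.48, 3.30 and 2.42 on day 1, against 4.51, 4.24, 3.58, 4.40 and 3.80 in H0. On day 1 no irradiated array reached the lowest H0 array, while on day 2 arrays of both categories overlapped H0. TNFRSF25 was 8.53-fold lower in H2-3 than in H0 on day 1 (adjusted p 0.00016, limma), a call kept under all 37 alternatives, and 3.43-fold lower in H1-2 (adjusted p 0.0354). On day 2 its change in H2-3 was -0.84 ± 0.48 (adjusted p 0.209). The fifth death receptor, TNFRSF1A, is described with the differences between animals.

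Among the TRAF-binding receptors, TNFRSF1B (TNFR2), the TNF receptor largely limited to leukocytes and endothelium, had levels of 2.92, 2.35, 2.74, 3.09 and 2.89 in H2-3 on day 2 and 2.84, 2.61, 2.50, 3.1 and 3.26 on day 1. H1-2 baboons had 3.07, 2.89, 1.67 and 1.77 on day 2 and 2.62, 2.35, 2.66 and 2.49 on day 1, against 1.16, 1.68, 2.24, 2.24 and 1.67 in H0. H2-3 did not overlap H0 on either day, nor did H1-2 on day 1. TNFRSF1B was 2.00-fold higher in H2-3 on day 2 (adjusted p 0.0194, limma) and 2.10-fold higher on day 1 (adjusted p 0.00484). A second probe of the gene gave a log2 change of 0.98 on day 1 in H2-3, close to the 1.07 of the brighter probe. On day 2 the second probe gave 0.85 and did not pass (limma, adjusted p 0.0577 over all kept probes).

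TNFRSF8 (CD30), a receptor of activated lymphocytes, had levels of 1.17, 0.50, 1.14, 0.16 and 0.80 in H2-3 on day 2 and 1.26, 0.85, 1.35, 1.15 and 0.84 on day 1. In H1-2 they were 1.76, 0.61, 0.15 and -0.55 on day 2 and 1.21, 1.06, 0.49 and 0.79 on day 1, against 0.01, 0.36, 0.57, -0.44 and 0.10 in H0. The 5 H2-3 arrays of day 1 lay above all H0 arrays, and the rise there was 0.97 ± 0.31 (adjusted p 0.0242, limma). On day 2 the H2-3 change of 0.63 ± 0.31 did not pass (adjusted p 0.151).

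TNFRSF11A (RANK), the receptor for RANKL on osteoclast precursors and dendritic cells, was not well above background on any H0 array. It passed the filter through arrays of irradiated animals only. Its place among the members that rose therefore depended on the groups where it was high. Its readings were -3.34, -3.74, -2.33, -1.95 and -2.53 in H2-3 on day 2, above background in baboons 3 to 5, and -1.91, -3.65, -2.78, -2.03 and -1.58 on day 1, above background in baboons 1, 4 and 5. In H1-2 they were -2.67, -2.67, -4.17 and -4.92 on day 2, above background in baboons 1 and 2, and -2.57, -2.27, -4.92 and -3.51 on day 1, above background in baboon 2, against -5.25, -5.58, -4.74, -4.78 and -5.15 in H0. Against the lowest signal well above background on each H0 array, TNFRSF11A was at least 1.38-fold higher in H2-3 on day 2 (adjusted p 0.00905, limma) and at least 1.81-fold higher on day 1 (adjusted p 0.000617). H1-2 on day 1 passed the test too (adjusted p 0.043) with 1 of 4 arrays above background, which allows no fold. Its ligand RANKL (TNFSF11) and the RANKL decoy TNFRSF11B were below background on every array.

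The co-stimulatory receptors of T cells TNFRSF4 (OX40) and TNFRSF18 (GITR) were lower in H2-3 on day 1. TNFRSF4 levels were 0.52, 1.53, 0.61, 1.55 and 0.78 in H2-3 on day 2 and -1.59, 0.47, -0.58, 0.50 and -0.58 on day 1. H1-2 arrays read 0.34, 0.96, 1.60 and 1.52 on day 2 and 0.40, -0.88, 0.73 and 0.96 on day 1, against 0.65, 0.47, 1.34, 1.5 and 0.20 in H0. H2-3 and H0 overlapped on both days, with baboons 1, 3 and 5 below every H0 array on day 1. TNFRSF4 was 2.28-fold lower in H2-3 on day 1 (adjusted p 0.0322, limma), and its day 2 change was 0.16 ± 0.41 (adjusted p 0.796).

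TNFRSF18 levels were -2.93, -1.56, -2.27, -1.24 and -1.5 in H2-3 on day 2 and -4.52, -2.21, -3.71, -3.48 and -4.99 on day 1. The H1-2 values were -2.18, -1.73, -1.83 and -1.20 on day 2 and -2.48, -3.86, -1.93 and -2.15 on day 1, against -2.19, -3.26, -1.77, -1.65 and -1.95 in H0. On day 1, 1 of 5 H2-3 arrays (baboon 2) was well above background, against 4 of 5 in H0, and on day 2 all 5 H2-3 arrays were. TNFRSF18 fell in H2-3 on day 1 (adjusted p 0.0115, limma). With dim arrays set to the lowest signal above background, it was 1.53-fold lower. TNFRSF12A, TNFRSF14 (HVEM) and TNFRSF19 did not pass in any comparison. Their levels spanned -1.46 to -0.01, 2.18 to 3.45 and -0.29 to 0.88 over the 23 arrays. In H2-3, TNFRSF14 had changes of -0.27 ± 0.20 on day 2 and 0.01 ± 0.20 on day 1. A second TNFRSF14 probe, above background on 11 arrays, gave 0.10 ± 0.56 and -1.25 ± 0.56 and passed on neither day.

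The receptors of BAFF and APRIL fell while their ligands rose. TNFRSF13C (BAFF-R), which passes the survival signal of BAFF to mature B cells, had levels of -1.46, -2.23, -1.88, -2.09 and -2.28 in H2-3 on day 2 and -1.89, -1.77, -1.39, -2.41 and -2.14 on day 1. H1-2 baboons had -1.93, -1.52, 0.01 and 0.45 on day 2 and -1.42, -1.91, 0.11 and 0.06 on day 1, against -0.28, -0.62, 0.20, 0.30 and 0.40 in H0. All 10 H2-3 arrays lay below all 5 H0 arrays. TNFRSF13C was 3.97-fold lower in H2-3 on day 2 (adjusted p 0.00866, limma) and 3.78-fold lower on day 1 (adjusted p 0.00191). In H1-2 its changes of -0.75 ± 0.45 on day 2 and -0.79 ± 0.45 on day 1 did not pass (adjusted p 0.546 and 0.265).

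TNFRSF13B (TACI), which binds both BAFF and APRIL, was not well above background on any of the 10 H2-3 arrays, against 4 of 5 H0 arrays. It passed the filter through H0 and H1-2 arrays only, the groups where it was higher. The H2-3 probe readings were -3.33, -4.50, -3.98, -3.72 and -4.51 on day 2 and -4.39, -5.13, -4.77, -4.38 and -3.93 on day 1. In H1-2 the levels were -3.09, -2.68, -1.94 and -2.48 on day 2, with 3 of 4 above background, and -2.50, -3.82, -2.09 and -2.47 on day 1, with 2 of 4 above background, against -3.22, -1.96, -1.99, -2.11 and -1.73 in H0. With the H2-3 arrays set to no less than the lowest signal above background, TNFRSF13B was at least 2.10-fold lower in H2-3 on day 2 (adjusted p 0.0069, limma) and at least 1.76-fold lower on day 1 (adjusted p 0.000109). The third receptor of the pair, TNFRSF17 (BCMA), found mainly on plasma cells, was above background on too few arrays to be tested.

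B cell markers moved with these receptors. Of the 10 B cell markers tested, 8 fell in H2-3 on day 2 and 9 on day 1, where 4.48% and 13.5% of all genes fell, and none passed in H1-2 on either day. Their mean level was -1.49 to -0.03 in H2-3 on day 2 and -2.09 to -0.38 on day 1, against 1.12 to 2.14 in H0. CD22 and FCER2 were at background on all 5 H2-3 arrays of day 1. In bulk blood, fewer cells of a type and less RNA per cell cannot be told apart, and the part of cell number in the TNFRSF13B and TNFRSF13C results was not tested.

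T cell markers moved with TNFRSF25, TNFRSF4 and TNFRSF18. Of 13 T cell markers, 2 fell in H2-3 on day 2, 11 fell and 1 rose there on day 1, and in H1-2 on day 1 6 fell and 1 rose. Over all genes, 4.48% fell in H2-3 on day 2, and 15% rose and 13.5% fell there on day 1. In H1-2, 4.18% of all genes rose and 4.42% fell on day 1. The mean T cell level was 2.72 to 3.82 in H2-3 on day 2 and 0.94 to 3.05 on day 1, against 3.57 to 4.38 in H0, with no marker at background on all arrays of a group. Of 4 markers of regulatory T cells, the type in which TNFRSF4 and TNFRSF18 are known to be high, 2 fell in H2-3 on day 1 and none on day 2. NK cell markers fell too, 8 of 9 in H2-3 on day 1. Of 7 plasma cell markers 1 rose and 2 fell there, 2 of 3 dendritic cell markers rose, and 1 of 5 eosinophil and basophil markers rose.

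Neutrophil and monocyte markers were among the genes that rose. In H2-3, 6 of 10 neutrophil markers rose on day 2 and all 10 on day 1, and 6 of 8 monocyte markers rose on day 2 and all 8 on day 1. Over all genes, 10.3% rose there on day 2 and 15% on day 1. In H1-2 on day 1, 8 neutrophil and 3 monocyte markers rose, where 4.18% of all genes did. The mean neutrophil level was 4.91 to 5.99 in H2-3 on day 2 and 6.04 to 6.64 on day 1, against 2.92 to 5.65 in H0. The median of these means in H2-3 was 5.53 on day 2 and 6.29 on day 1. On the same days the H2-3 group mean of TNFRSF10B was 0.50 and -0.46, and that of TNFSF14 was 4.66 and 5.06. Neither member passed between the days, which also differ in scan day. The other members were not set beside the neutrophil markers. H0 baboon 1 had the lowest neutrophil mean and H0 baboon 3 the highest. The part of these markers in the rises was not tested. Platelet markers rose mainly on day 2 (4 of 7 in H2-3), and none of the 6 erythroid markers passed in any comparison with H0, where their mean level was 6.07 to 7.39.

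**Figure D3:**
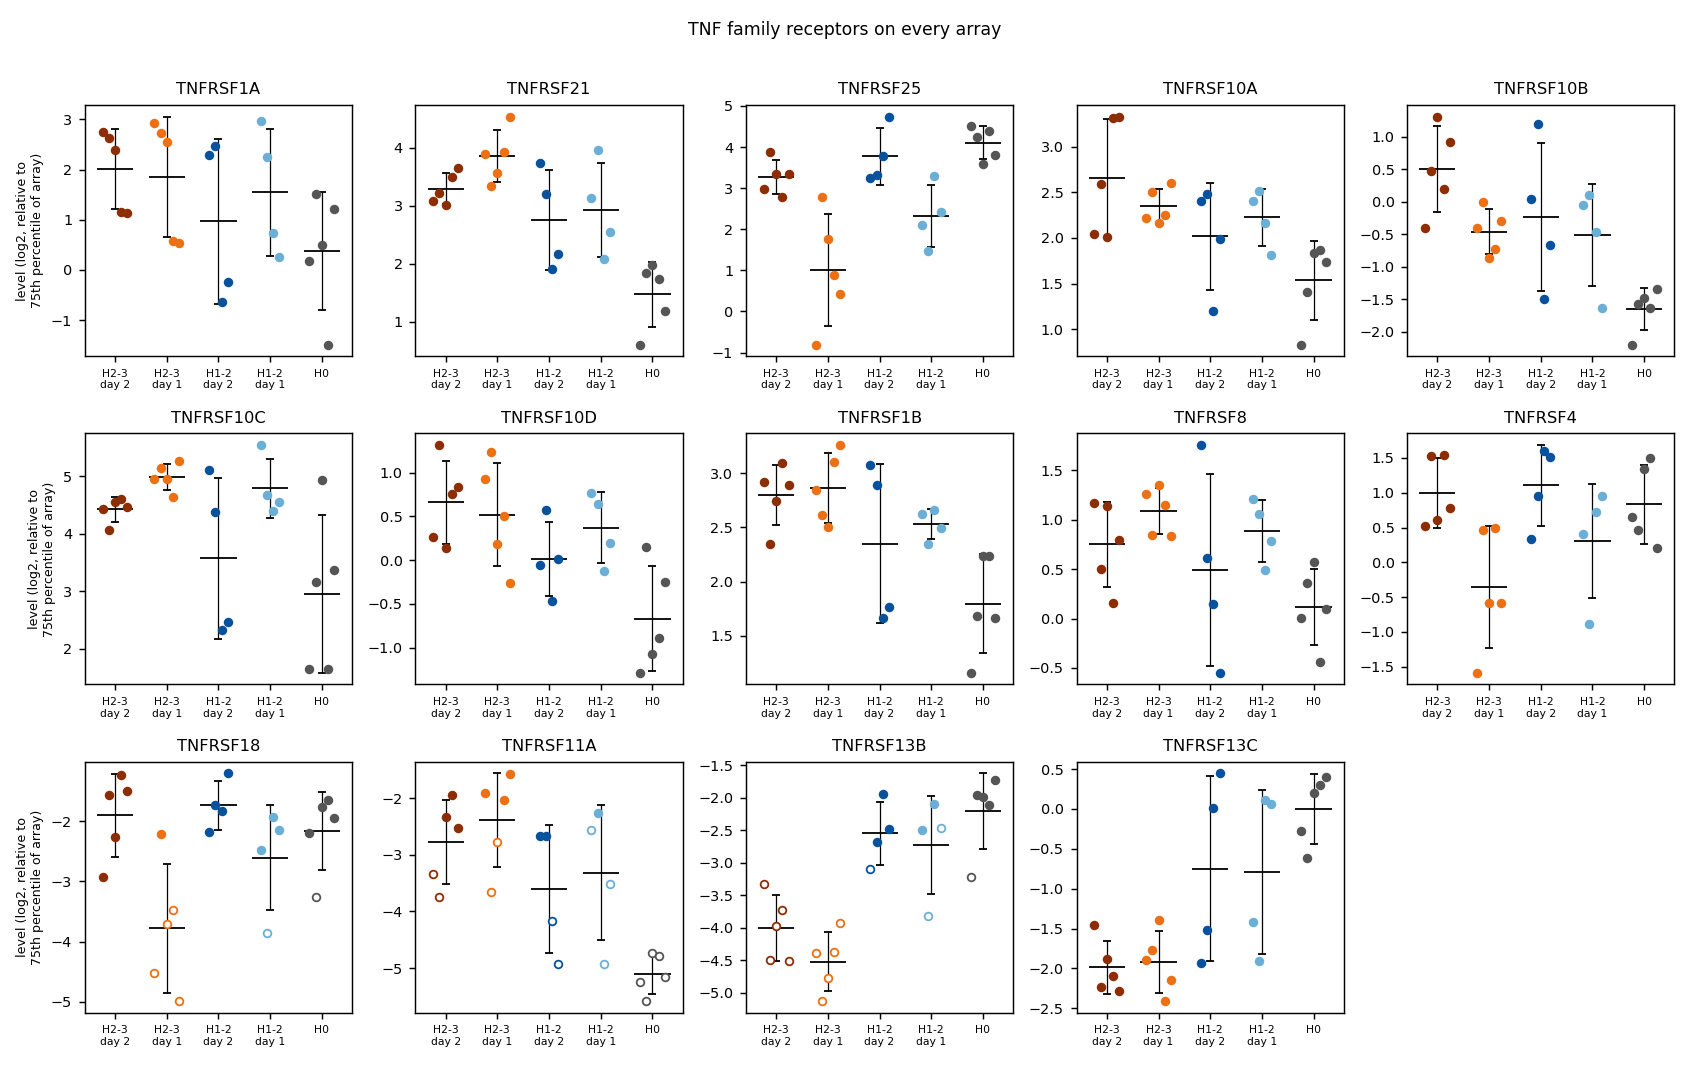
Levels of 14 receptors on every array (points, log2 relative to the array's 75th percentile), with the group mean and SD (bars, n = 5, 5, 4, 4 and 5 from left to right) and open points where the probe was not well above background. All H2-3 arrays lie above all H0 arrays for TNFRSF21, TNFRSF10A, TNFRSF10B and TNFRSF1B and below them for TNFRSF13C, while TNFRSF25 is below all H0 arrays on day 1 and reaches 3.88, within the H0 range, on day 2.

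Between the categories on day 1, none of the 26 members and 0% of all genes passed in H2-3 against H1-2, with 8 members and 1224 genes at an unadjusted p under 0.05. The smallest adjusted p of a member was that of TNFRSF13B (0.121, limma), which was above background on 0 of 5 H2-3 arrays and 2 of 4 H1-2 arrays, and the bound for this difference is at least 1.23-fold lower in H2-3. Without the day 1 array of H1-2 baboon 2, 1 member passed, lower in H2-3. TNF had a difference of 0.78 ± 0.30 (adjusted p 0.61), and its lowest H2-3 array (2.53) lay just above its highest H1-2 array (2.50). On day 2 again no member and 0% of genes passed, with 5 members and 2062 genes at an unadjusted p under 0.05. TNFRSF13B, above background on 0 of 5 H2-3 and 3 of 4 H1-2 arrays, had a bound of at least 1.66-fold lower in H2-3 (adjusted p 0.42, limma). The TNFSF13B difference was 0.76 ± 0.31 (adjusted p 0.508), and its lowest H2-3 array was level with the highest H1-2 array at 5.34.

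Slides 4 to 7 each held arrays of both categories from 1 sampling day, which gives differences within a slide. For TNFRSF13C the H2-3 mean minus the H1-2 mean was -0.13 and -2.42 on the 2 slides of day 2 and 0.09 and -2.36 on the 2 slides of day 1, with 2 to 3 H2-3 arrays and 2 H1-2 arrays behind each value. The TNFRSF25 differences were 0.12 and -1.20 on day 2 and 0.48 and -2.20 on day 1. For TNF they were -0.14 and 0.94 on day 2 and 0.73 and 0.57 on day 1, so that 1 of the 4 slides had the lower mean in H2-3.

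Within H1-2 the animals differed in TNFRSF13C. H1-2 baboons 1 and 2 had levels of -1.93 and -1.52 on day 2 and -1.42 and -1.91 on day 1, within the H2-3 range of -2.41 to -1.39. Baboons 3 and 4 had 0.01 and 0.45 on day 2 and 0.11 and 0.06 on day 1, within the H0 range of -0.62 to 0.40 or just above it. The mean of the 10 B cell markers split the same animals, at -0.35 and -0.09 on day 2 and 0.28 and -0.53 on day 1 in baboons 1 and 2, against 2.55 and 2.67 on day 2 and 2.35 and 1.90 on day 1 in baboons 3 and 4. The same animals stood apart in other members on day 2, for example TNFSF13 (3.20 and 3.29 against 2.15 and 2.19). In TNFSF10 they did not (3.27 and 3.40 against 3.44 and 3.09). Over all genes tested, deviations from the group mean correlated between the days at 0.408 and 0.428 for baboon 1 with baboon 2. For baboon 3 with baboon 4 the values were 0.583 and 0.617, and across these pairs -0.445 to -0.272. Each baboon with itself gave 0.381, 0.39, 0.156 and 0.057 for baboons 1 to 4. These are 4 animals, and no test was made between them.

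TNFRSF1A (TNFR1), the TNF receptor with a death domain that most cells carry, split the animals in both categories. In H2-3 its levels were 2.74, 2.63, 2.38, 1.16 and 1.14 on day 2 and 2.92, 2.72, 2.54, 0.58 and 0.54 on day 1, with baboons 4 and 5 lowest on both days. In H1-2 they were 2.29, 2.46, -0.64 and -0.25 on day 2 and 2.96, 2.25, 0.73 and 0.26 on day 1, with baboons 3 and 4 lowest on both days, against 0.17, 1.52, 0.50, -1.49 and 1.21 in H0. TNFRSF1A did not pass in any comparison, with a change of 1.63 ± 0.71 in H2-3 on day 2 (adjusted p 0.108, limma) and 1.48 ± 0.71 on day 1 (adjusted p 0.124). The probe is printed in 10 spots per array, which were averaged. All arrays of the lower animals lay on slide 5 (day 1) or slide 7 (day 2), and all arrays of the higher ones on slides 3, 4 and 6. Animal and slide therefore cannot be told apart for TNFRSF1A, nor for the split among H1-2 baboons in TNFRSF13C and other genes.

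**Figure D4:**
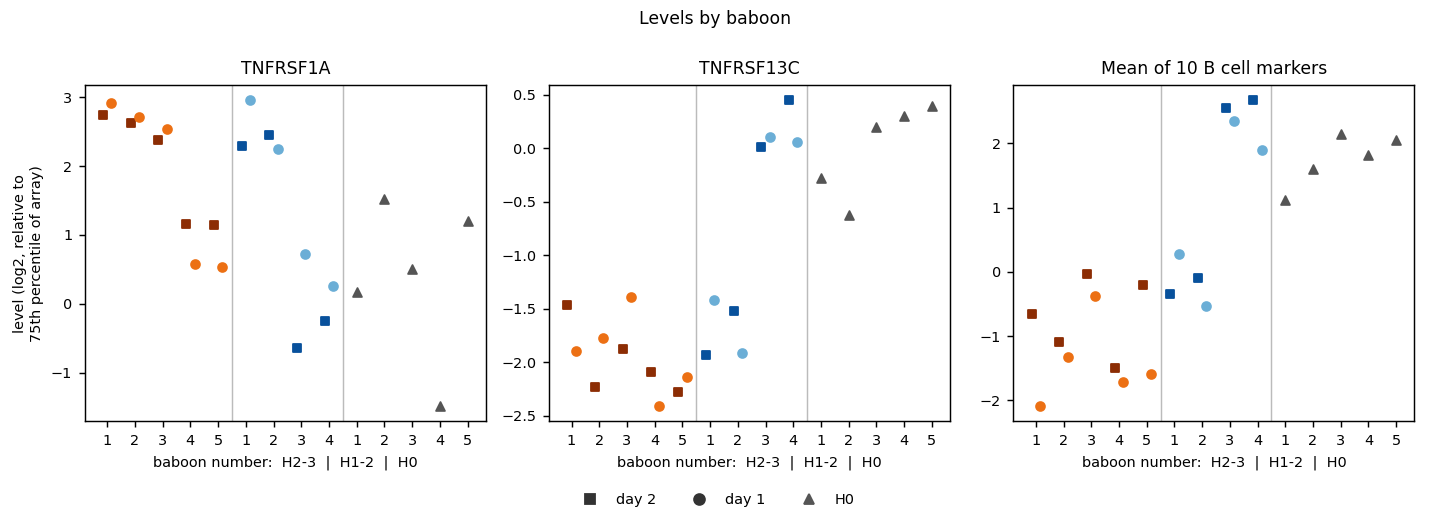
Levels of TNFRSF1A and TNFRSF13C and the mean level of 10 B cell markers (log2 relative to the array's 75th percentile) for each baboon, with squares for day 2, circles for day 1 and triangles for H0. TNFRSF1A is low in H2-3 baboons 4 and 5 and H1-2 baboons 3 and 4 on both days, and in H1-2 baboons 3 and 4 TNFRSF13C lies within the H0 range or just above it, while their B cell marker mean of 1.90 to 2.67 lies within or above the H0 range of 1.12 to 2.14.

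Set against day 1, the H2-3 blood of day 2 gave 2 of the 26 members that rose and none that fell, where 2.97% of all genes passed, 1.74% higher. They were TNFRSF25, 4.77-fold higher on day 2 than on day 1 (adjusted p 0.0217, limma), and TNFRSF18 (adjusted p 0.0385), with 5 of 5 arrays above background on day 2 against 1 of 5 on day 1. With the dim day 1 arrays set to the lowest signal above background, TNFRSF18 was 1.83-fold higher on day 2. TNFRSF4 had a change of 1.35 ± 0.41 that did not pass (adjusted p 0.0606), and its lowest day 2 array lay just above its highest day 1 array. In the same comparison 7 of 13 T cell markers rose and 1 fell. The count of 2 was 0 without the day 1 array of H2-3 baboon 4 or 5 or the day 2 array of baboon 2, 3 or 5, and 1 without the day 1 array of baboon 1 or 3 or the day 2 array of baboon 4. In H1-2 no member and 0% of genes passed between the days, with 4 members and 4957 genes at an unadjusted p under 0.05. The difference between the categories in this change was passed by no member and 0% of genes, with 0 members and 421 genes at an unadjusted p under 0.05. All day 2 arrays were scanned on 1 day and all day 1 arrays on another, so scan day and sampling day cannot be told apart.

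Some members of the superfamily carry other symbols, and 13 of the 14 listed were tested. In H2-3, 2 rose and 2 fell on day 2 and 3 rose and 4 fell on day 1, with a median log2 change of 0.47 on day 2 and 0.27 on day 1. For this list and those that follow, the shares of all genes that passed in H2-3 were 14.8% on day 2 (10.3% higher, 4.48% lower) and 28.4% on day 1 (15% higher, 13.5% lower), with medians over all genes of -0.03 and 0.14. CD40, the co-stimulatory receptor of B cells and antigen-presenting cells, fell in H2-3 by 2.12 on day 2 (adjusted p 0.0125, limma) and fell on day 1 as well (adjusted p 0.000283). It was above background on 1 of 5 H2-3 arrays of day 1, against 5 of 5 in H0, and with the dim arrays set to the lowest signal above background CD40 was 5.12-fold lower there. CD40LG, its T cell ligand, fell by 2.24 on day 1 (adjusted p 0.000391), and its change on day 2 was -0.40 (adjusted p 0.48). FASLG, the ligand through which T and NK cells kill, fell by 2.82 on day 1 in H2-3 (adjusted p 0.00075) and by 1.88 in H1-2 (adjusted p 0.0456). LTBR, the lymphotoxin beta receptor that also binds LIGHT, rose by 1.85 in H2-3 on day 2, by 1.83 on day 1 and by 1.33 in H1-2 on day 1 (adjusted p 0.00599, 0.000469 and 0.0261).

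Behind the receptors, 17 of 19 adaptors and kinases were tested, and in H2-3 1 rose and 1 fell on day 2, where 14.8% of all genes passed, and 3 rose and 4 fell on day 1, where 28.4% did. Their median log2 changes were 0.42 on day 2 and 0.23 on day 1. The 4 that fell on day 1 were TRAF2, TRAF3 and TRAF5, adaptors of the TRAF-binding receptors, and the kinase TNIK, with log2 changes of -1.36, -1.25, -2.33 and -1.60 (adjusted p 0.000119, 0.000454, 0.00162 and 0.000561). TRAF5 was above background on 3 of 5 H2-3 arrays of day 1. In H1-2 on day 1 TRAF2, TRAF3 and TNIK fell as well, and TRAF5, at -0.58, did not pass (adjusted p 0.519, limma).

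Of 18 NF-kB factors and feedback genes, 8 rose and none fell in H2-3 on day 2, and 9 rose and 3 fell on day 1, with 14.8% and 28.4% of all genes passing on these days. The median log2 change was 0.61 on day 2 and 0.69 on day 1, against -0.03 and 0.14 over all genes. REL and NFKB1, subunits of NF-kB, rose by 0.91 and 0.63 on day 2 and by 1.07 and 1.09 on day 1 in H2-3, and both rose in H1-2 on day 1 (0.95 and 0.86). TNFAIP2, a TNF-induced gene, rose by 1.35 on day 2 and 1.46 on day 1. BIRC3, an inhibitor of cell death that is also a target of NF-kB, went the other way and fell by 3.02 in H2-3 on day 1 (adjusted p 0.000245, limma), with a change of -1.0 on day 2 that did not pass (adjusted p 0.154).

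Of 10 genes of death signalling, 4 rose on day 2 and 3 rose and 1 fell on day 1 in H2-3, beside 14.8% and 28.4% of all genes, and the median log2 changes were 0.68 and 0.36. BID, which links death receptors to mitochondria, rose by 1.20 on day 2 and 1.14 on day 1 (adjusted p 0.0081 and 0.00142, limma), and RIPK3, the kinase of necroptosis, by 0.71 and 0.60 on the same days. CFLAR, the inhibitor of caspase activation at death receptors, rose by 1.11 on day 1, and CASP10, a caspase recruited to them, fell by 0.89. Of the 5 genes that release ligands and receptors from the cell surface, 4 rose in H2-3 on each day, where 10.3% of all genes rose on day 2 and 15% on day 1. FURIN, the protease of the BAFF and APRIL cleavage sites, rose by 1.45 on day 2 and 1.80 on day 1, and in H1-2 by 1.81 on day 1 (adjusted p 0.0155, 0.00111 and 0.0148). ADAM17, the protease that sheds TNF and its receptors, rose by 1.37 on day 2 and 1.44 on day 1, and in H1-2 by 1.17 on day 1 (adjusted p 0.00866, 0.00111 and 0.027). No gene of these 5 lists passed in H1-2 on day 2 in limma.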

How the data were processed

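Per the labels' protocols, 2.5 ml of whole blood was drawn into PAXgene tubes and 100 ng of total RNA per sample was labelled with Cy3. The deposited scanner files hold spot intensity, background-subtracted, with flags for signal above background and saturation, as written by Agilent Feature Extraction 10.7.3.1, per the submitters' processing notes. The deposited value table holds log2 values that correlated with their own arrays at 0.9982 to 0.9999, and each column has a median of 4.703. How it was centred stays unknown, and it served as an alternative.

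Log2 of the processed signal was taken, spots of a probe were averaged, and the array's 75th percentile over 50599 probes that were not controls was subtracted. Probes well above background on at least 4 arrays were kept (27215), and the brightest stood for its gene (21130 genes). The 18 members named by rule passed in a comparison with H0 or between categories, and TNFRSF1A, which passed in none, was given in full after its values were seen; of each other list at most 4 genes, those with the smallest F test p, were named. Members, lists and tests were chosen with earlier results of these data known.

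The comparisons used limma 3.58.1 in R 4.3.3 (data.table version 1.17.8, statmod 1.5.0, matplotlib 3.10.9), in 1 fit of 5 group means on 23 arrays with no block, two-sided, with Benjamini-Hochberg adjustment at 0.05. The fit was tested on simulated data. Precision is limited by the number of arrays. Where a probe was dim on all arrays of a group, the fold is a lower bound: each such array was set to its own dimmest signal still called above background, or to the probe's signal if that was larger; where only some arrays were dim, the same was done for those and the fold is no bound. The titles number the same baboons on both days. Same-numbered arrays of 1 category correlated at 0.05 to 0.44 in their deviations, against -0.445 to 0.617 for differently numbered ones, and the baboon was a block in an alternative. Results were recomputed in 14 other ways, plus 2 chosen after the data were seen. How sequence differences between baboon RNA and human probes affect a signal was not tested.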

Additional observations from a re-analysis of the deposited data

Results flagged for a closer look

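TNFRSF13B in H0 baboon 1 had a level of -3.22, far below the other H0 arrays, which read -2.11 to -1.73. It was the only H0 array on which the probe was not well above background. Of 90 sets of 4 or 5 arrays examined over the members and groups, this was the 1 whose lowest or highest array stood apart by Dixon's test, where chance alone flags about 1 in 20.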

How the results depend on the processing

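No called member changed direction under any alternative that gave a value. The count of 18 members in H2-3 against H0 on day 1 was 3 (1 higher, 2 lower) with slide as a block, which leaves 1 slide with arrays of both groups, 11 with scan day as a block, and 12 to 18 without single arrays. The 5 in H1-2 on day 1 became 3 under quantile normalisation, the deposited value table or slide as a random block (added after seeing the data), 2 with no filter on dim probes, 1 with only the compared groups in the fit, 0 with slide or scan day as a block or without the 2 H0 arrays of another scan day (added after seeing the data), and 0 to 6 without single arrays. The 13 in H2-3 on day 2 became 5 without those 2 H0 arrays and 8 to 14 without single arrays. For H2-3 on day 2 against day 1 the 2 calls became 1 with normexp background correction or slide as a random block, 0 with only the compared groups, 4 with array weights and 0 to 3 without single arrays. Array weights gave 1 call in H2-3 against H1-2 on day 1 (0 to 1 without single arrays) and 1 in H1-2 on day 2 against day 1, where there was none. The F test count of 16 was 11 to 17 without single arrays. Some of these fits held fewer arrays, and why calls were lost was not tested. Among the fits listed here, those with a block or with arrays left out have no count over all genes. With the replicate block (baboon, random) all 38 called member changes kept their call, and the pairing as a fixed term kept both of the 2 day calls. No call was thus lost with the block, and these counts do not cover calls gained. Slide or scan day as a block gives no value for day 2 against H0 or against day 1. At background, TNFRSF11A, TNFRSF13B, TNFRSF18 and TNFSF4 have bounds or partial values, and a filter at 12 arrays left 24 members.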
